A study of Homo sapiens with 18 samples.

Results

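The peaks described here lie at MYC and PGK1 in maps of RNA bound by the MYC protein. They were chosen by position, as every deposited peak on the plus strand that overlaps the annotated span of either gene or the 1 kb before it, and 11 of 2340 peaks met that rule. The 3A list held 3 of them among 103 peaks, the 7A list 3 among 88, and the wild-type list 5 among 2149. Both genes had been singled out because their peaks were strong in these same lists, so the enrichments below are a description and no test was made of them.

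The method was eCLIP, a sequencing form of crosslinking and immunoprecipitation: ultraviolet light fixes protein to RNA in living cells, the tagged protein is pulled out of the lysate, and the RNA attached to it is sequenced. All cells were U2OS, a human osteosarcoma line, with the endogenous MYC knocked out and a FLAG-tagged MYC under Tet-On control, which doxycycline switches on. The tagged protein was MYC-3A, MYC-7A or wild-type MYC, each after 24 h with 1 µg/mL doxycycline. Each of these 3 groups had 2 immunoprecipitated libraries and 1 input library, and cells given PBS in place of doxycycline were sequenced in the same numbers but their peaks are not analysed here. The labels do not give the changed residues of 3A and 7A, the vector, the allele left by the knockout, or whether a line is 1 clone. Peak lists are not expression levels, so the identity of the cells was not checked against marker genes. There is 1 list per allele, so no value has a replicate check, and how deeply the libraries were sequenced is unknown. Because no peaks of cells without doxycycline are analysed here, the background in those cells is not given.

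MYC is a transcription factor that pairs with MAX through a helix-loop-helix and leucine zipper region and binds DNA as that dimer. Its coding sequence lies in the second and the third exon, so most of the first exon, the introns and the end of the last exon are not translated. PGK1 encodes phosphoglycerate kinase, an enzyme of glycolysis that makes ATP, and a short stretch at the start of the human gene is widely used as a promoter in expression vectors. A cell with a MYC transgene can yield reads that align to the annotated MYC gene whether they came from the transgene or from the chromosome, and the peak lists do not separate these sources.

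The sequence at the PGK1 start is shown because it lies inside the PGK1 peak of every list. It is the RefSeq promoter window of GRCh38.p14, plus strand, chrX:78103998-78104297, with 250 bases before the annotated start and 50 from it. All 300 bases fall within the 3A peak, the 7A peak and the wild-type peak. Capitals mark matches to the GC box GGGCGG and the CCAAT box CCAAT on either strand.
PGK1: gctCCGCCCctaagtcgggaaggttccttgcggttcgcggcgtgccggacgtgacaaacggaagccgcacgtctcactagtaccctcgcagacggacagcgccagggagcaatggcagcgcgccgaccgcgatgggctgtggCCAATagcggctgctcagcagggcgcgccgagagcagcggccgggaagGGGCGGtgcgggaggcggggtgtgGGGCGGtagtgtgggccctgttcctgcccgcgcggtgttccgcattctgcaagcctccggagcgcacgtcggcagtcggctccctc

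The PGK1 window held 3 GC boxes, which began 247, 60 and 36 bases before the annotated start, and 1 CCAAT box, which began 108 bases before it. Of 35116 RefSeq promoter windows of the same length, 45.0% held a GC box and 34.6% a CCAAT box. The E-box CACGTG, the DNA sequence that MYC and MAX dimers are best known to bind, was not among these letters, and 7.26% of all windows held it. The TATA box TATAAA was not found in it either, against 11.5% of all windows. The window was 70.7% G and C, above 81.2% of all windows, whose median was 58.7%. These matches describe the letters of the window and not the binding of any factor.

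At MYC each list held 2 peaks, which lay at nearly the same positions for 3A, 7A and wild-type MYC. The gene spans 7518 bp, chr8:127735434-127742951, and the peaks covered 1387 bp of it for 3A (18.4%), 1350 bp for 7A (18.0%) and 1460 bp for wild type (19.4%). The remaining stretches of the gene had no peak in any list. The first of these ran from the annotated start for 2834 bp in 3A, 2844 bp in 7A and 2830 bp in wild type. Between the peaks there was a gap of 1347 bp in 3A, 1370 bp in 7A and 1307 bp in wild type. From the second peak to the annotated end there were 1950 bp in 3A, 1954 bp in 7A and 1921 bp in wild type. The RefSeq table used here gives no exons, so the peaks were not assigned to exons or to coding sequence.

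The first MYC peak carried the highest fold enrichment of all peaks in each list. Fold enrichment is the authors' ratio for a peak over a control that is not given in the sources used here, and it is compared only within its own list. In 3A the peak, chr8:127738268-127739060, was enriched 53.2-fold (−log10 q 362). In 7A it lay at chr8:127738278-127739049, enriched 39.8-fold (−log10 q 154). In wild type it lay at chr8:127738264-127739085, enriched 563-fold (−log10 q 4197). Set against the median of its own list, the fold enrichment of this peak was 9.61 times as high in 3A, 4.08 times in 7A and 69.3 times in wild type.

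The second MYC peak also ranked near the top. In 3A it lay at chr8:127740408-127741001, with a fold enrichment of 52.2, ranked 2 of 103, and a −log10 q of 222. In 7A it lay at chr8:127740420-127740997, with a fold enrichment of 23.3, ranked 7 of 88, and a −log10 q of 72.1. In wild type it lay at chr8:127740393-127741030, with a fold enrichment of 355, ranked 2 of 2149, and a −log10 q of 2434. Within a list, the second peak had 0.980 times the fold enrichment of the first in 3A, 0.585 times in 7A and 0.631 times in wild type. With no replicates, the spread of these ratios is unknown.

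**Figure D1:**
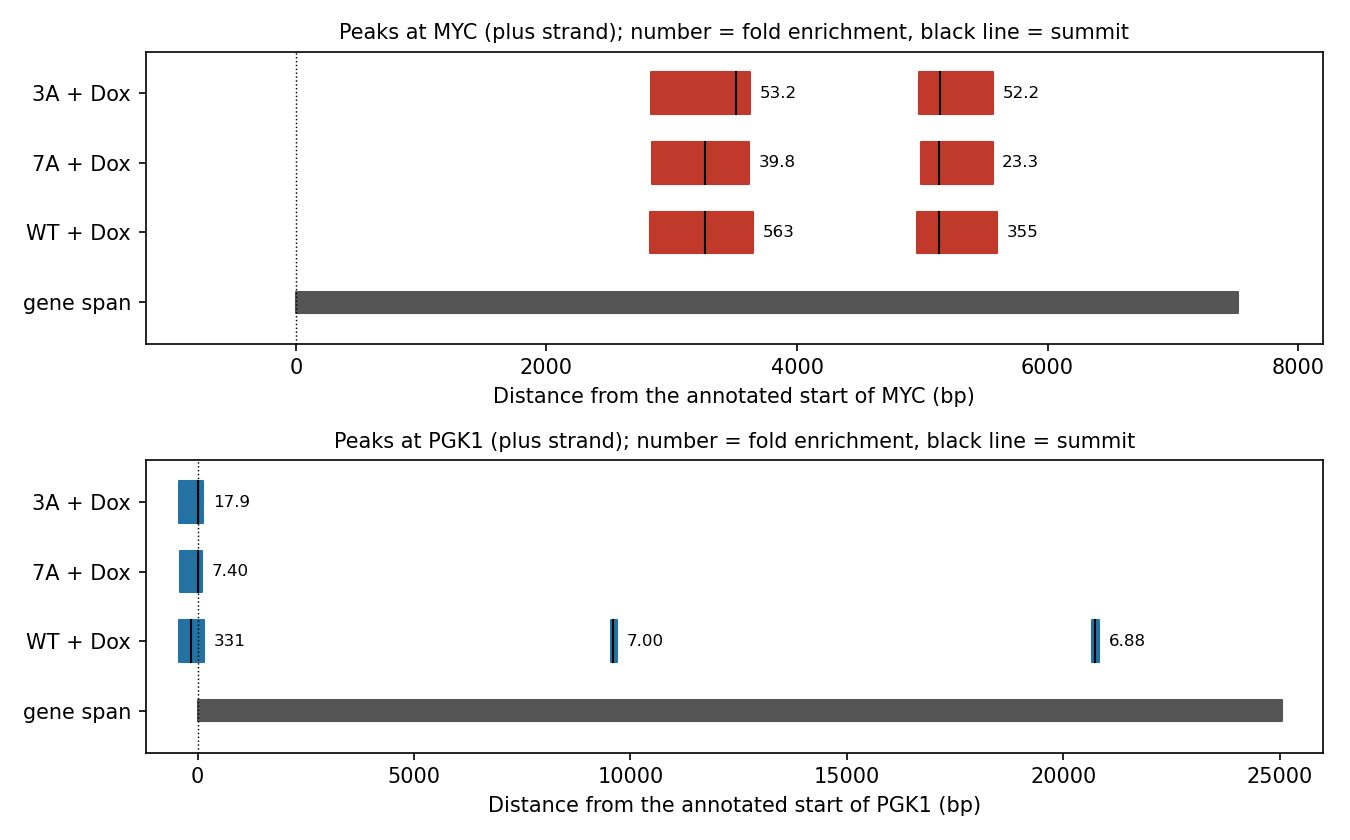
Peaks at MYC (upper panel) and PGK1 (lower panel) as bars by distance from the annotated gene start in bp, with 1 row each for the 3A, 7A and wild-type lists above the gene span in grey; black lines are summits and the printed numbers are fold enrichments. The paired MYC peaks and the PGK1 start peak recur in all 3 lists, and the peaks 9560 and 20672 bp into PGK1 are in the wild-type list only.

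At PGK1 each list held 1 peak that crossed the annotated start, and most of its length lay before the gene. The gene spans 25048 bp, chrX:78104248-78129295. In 3A the peak lay at chrX:78103828-78104380, so 420 of its 553 bp (75.9%) were upstream and it ended 133 bp into the gene. In 7A it lay at chrX:78103837-78104360, with 411 of 524 bp (78.4%) upstream and 113 bp in the gene. In wild type it lay at chrX:78103815-78104399, with 433 of 585 bp (74.0%) upstream and 152 bp in the gene. The upstream part is outside the annotated transcript of PGK1. Whether the reads came from the chromosomal locus or from a vector that carries this stretch was not tested.

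The summit of the PGK1 start peak, the position where the authors' caller placed its maximum, was not on the same side of the annotated start in all lists. It lay 14 bp downstream of the start in 3A, 20 bp downstream in 7A and 154 bp upstream in wild type. The summits of the mutant peaks were thus 168 bp (3A) and 174 bp (7A) downstream of the wild-type summit, although the edges of the peaks were close. Over other mutant peaks that met a wild-type peak, the median distance between summits was 5.0 bp in 3A (78 pairs) and 6.0 bp in 7A (27 pairs), and over those wider than 400 bp it was 13.5 bp (8 pairs) and 23.5 bp (6 pairs). No replicate gives the error of a summit, and these distances were not tested.

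**Figure D2:**
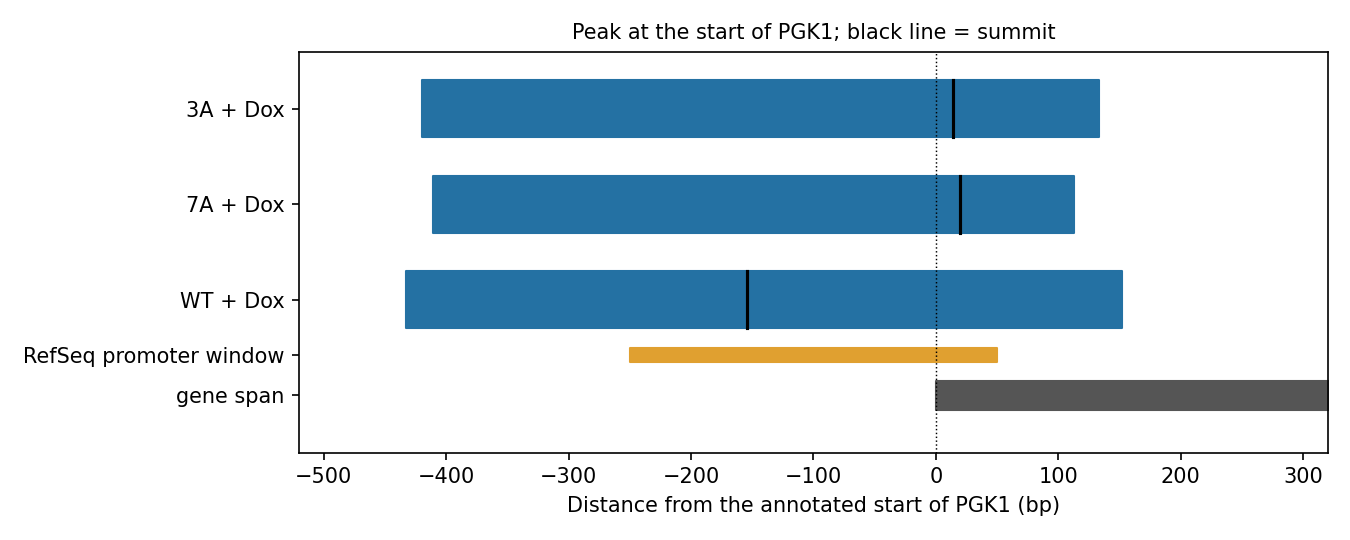
The PGK1 start peak in the 3A, 7A and wild-type lists by distance in bp from the annotated start (dotted line), with the summit of each as a black line, the RefSeq promoter window in orange and the start of the gene span in grey. The window lies inside all 3 peaks, and the wild-type summit is upstream of the start while both mutant summits are just downstream of it.

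The standing of the PGK1 start peak within its list varied more than that of the MYC peaks. In 3A its fold enrichment was 17.9, ranked 8 of 103, with a −log10 q of 270. In 7A its fold enrichment was 7.40, ranked 59 of 88 and under the list's median of 9.76, with a −log10 q of 56.3. In wild type its fold enrichment was 331, ranked 3 of 2149, with a −log10 q of 2849. The first MYC peak had 2.98 times the fold enrichment of the PGK1 start peak in 3A, 5.38 times in 7A and 1.70 times in wild type. Ranked by −log10 q, the PGK1 start peak was above the second MYC peak in 3A (3 against 5) and in wild type (2 against 3), and below it in 7A (17 against 12).

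The distance between these peaks and the rest of their list was widest for wild type. The first MYC peak had a fold enrichment of 53.2 in 3A, 39.8 in 7A and 563 in wild type. The strongest peak outside MYC and PGK1 had 27.8 in 3A, where it lay in no gene of the RefSeq table, 30.02 in 7A, where it lay in TOM1, and 44.8 in wild type, where it lay in the ribosomal protein pseudogene RPS21P4. The first MYC peak thus had 1.91 times the fold enrichment of the strongest peak elsewhere in 3A, 1.33 times in 7A and 12.6 times in wild type. The PGK1 start peak had 0.642 times that fold enrichment in 3A, 0.246 times in 7A and 7.38 times in wild type. All 3 of the MYC and PGK1 start peaks therefore stood apart from every other peak in the wild-type list, while in the 7A list only the first MYC peak exceeded all others. Depth and control are unknown, so these ratios do not compare the amount of RNA bound between alleles.

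**Figure D3:**
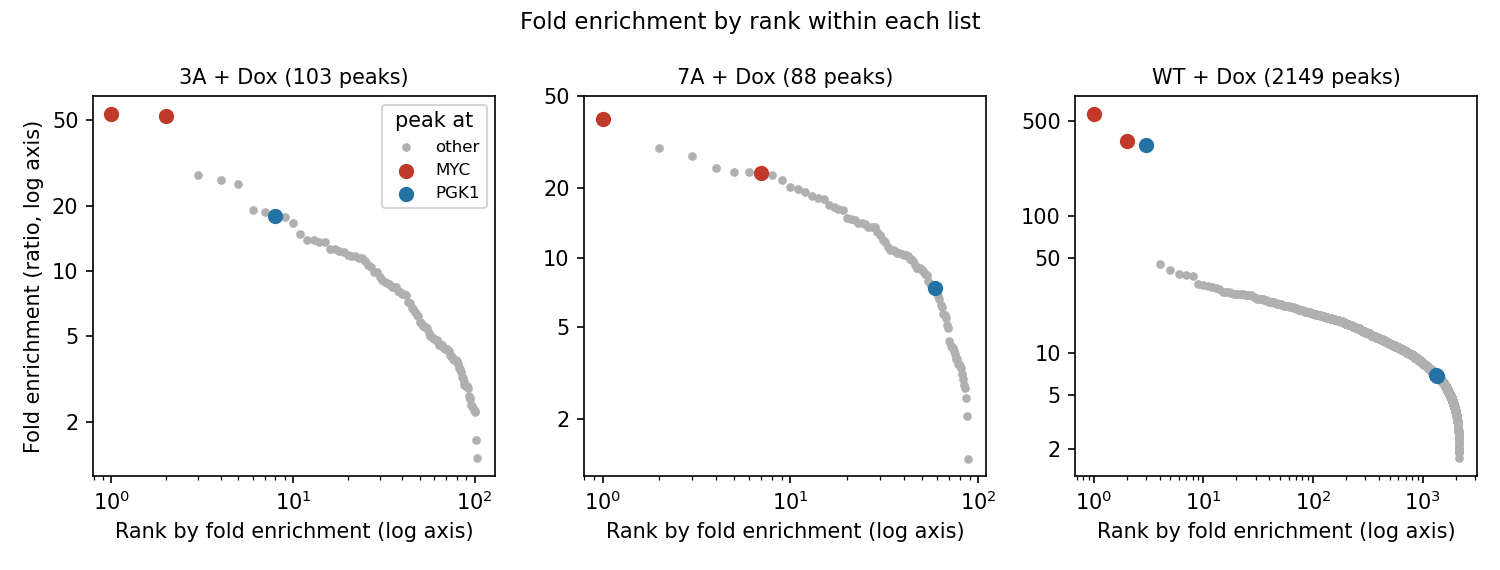
Fold enrichment (log axis) against rank by fold enrichment (log axis) for every peak of the 3A, 7A and wild-type lists, with peaks at MYC in red, at PGK1 in blue and all others in grey. In wild type the MYC and PGK1 start peaks, at 563, 355 and 331, are separated from the next peak at 44.8, and in 7A the PGK1 peak, at 7.40, lies among the other peaks.

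By −log10 q the MYC and PGK1 peaks did not lead the mutant lists. In 3A the top value was 1381, at a peak in no gene of the table, and the first MYC peak came next with 362. In 7A the highest was 778, at MTRNR2L1, a nuclear gene resembling mitochondrial ribosomal RNA, and the first MYC peak was ranked 3. In wild type the MYC and PGK1 start peaks took the first 3 places, ahead of RPPH1, the RNA component of ribonuclease P, at 1189. The RPPH1 peak had a fold enrichment of 3.61, ranked 2017 of 2149.

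**Figure D4:**
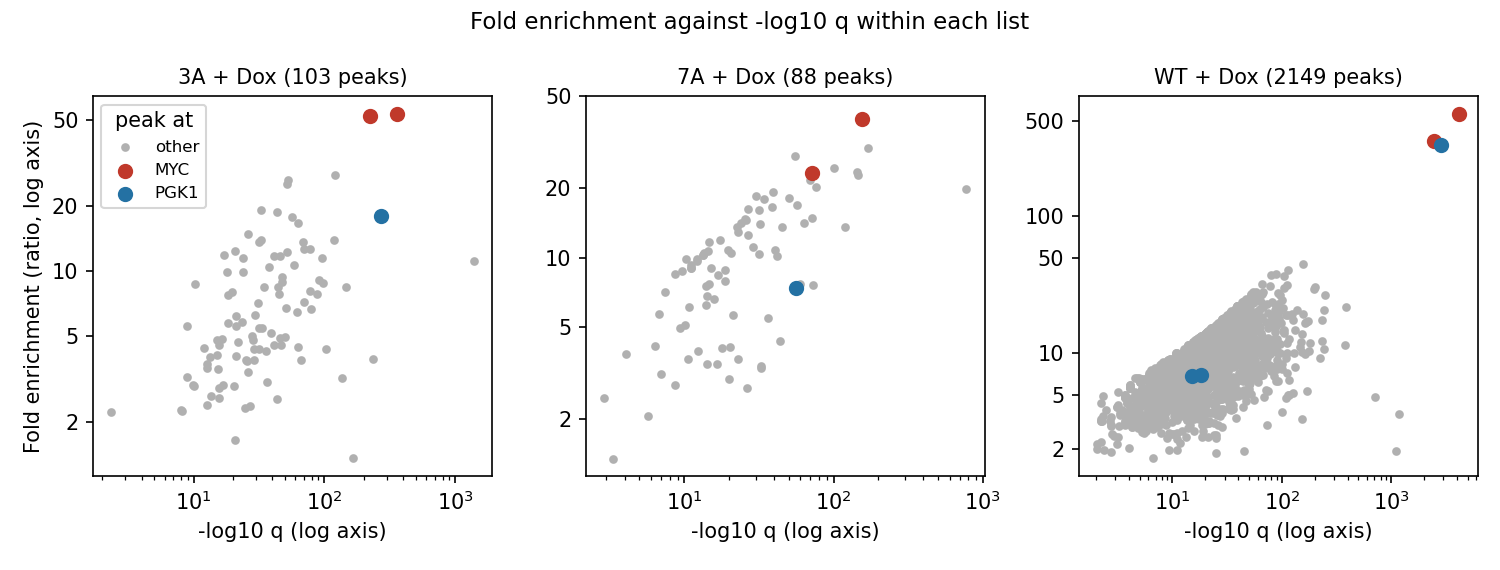
Fold enrichment (log axis) against −log10 q (log axis) for every peak of the 3A, 7A and wild-type lists, with peaks at MYC in red, at PGK1 in blue and all others in grey. In wild type the strong MYC and PGK1 peaks are high on both axes, and in 3A and 7A the PGK1 start peak, at 17.9 and 7.40, lies below the first MYC peak on both axes.

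Each of the MYC and PGK1 start peaks was wide. The first MYC peak was 793 bp in 3A, 772 bp in 7A and 822 bp in wild type, and the second was 594, 578 and 638 bp. The median width over all peaks was 171 bp in 3A, 202 bp in 7A and 165 bp in wild type. Peaks over 400 bp made up 16.5% of the 3A list, 29.5% of the 7A list and 5.86% of the wild-type list. By width the first MYC peak ranked 3 in 3A, 13 in 7A and 15 in wild type, and the PGK1 start peak ranked 11, 22 and 35. Width can grow with the strength of a peak, so it is not independent of the choice of these genes.

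The 3 peaks at MYC and PGK1 in each mutant list all met a wild-type peak on the same strand. Over the whole lists, 78.6% of 3A peaks and 34.1% of 7A peaks met one. Seen from the wild-type list, 3.54% of peaks overlapped one of 3A, 1.40% one of 7A, and 0.977% (21 of 2149) one of each, of which 3 were the MYC and PGK1 start peaks. These genes were known to have peaks in every list when they were chosen, so nothing is read from the count.

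The edges of the MYC and PGK1 start peaks were nested. At each of the 3 positions the 7A peak lay inside the 3A peak, and the 3A peak inside the wild-type peak. At the first MYC peak the 3A start was 4 bp and the 7A start 14 bp inside the wild-type start, and the 3A end was 25 bp and the 7A end 36 bp inside the wild-type end. At the second MYC peak the starts were 15 bp (3A) and 27 bp (7A) inside the wild-type start and the ends 29 bp and 33 bp inside the wild-type end. At PGK1 the starts were 13 bp and 22 bp inside and the ends 19 bp and 39 bp. The mutant peaks thus had between 89.6% and 96.5% of the wild-type width. Lying wholly inside a wild-type peak was common in general, at 74.1% of the 81 3A peaks and 76.7% of the 30 7A peaks that met a wild-type peak, and 62.5% of the 32 7A peaks that met a 3A peak lay wholly inside it.

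At MYC and PGK1 the median difference from the wild-type edges was 13.0 bp at the start and 25.0 bp at the end for 3A, and 22.0 and 36.0 bp for 7A. The edges of other peaks that met a wild-type peak were about as close, with medians of 10.0 bp at the start and 33.5 bp at the end over 78 pairs for 3A, and 25 and 30 bp over 27 pairs for 7A. Among those of them over 400 bp, a width chosen after the values were known, the medians were 48.5 and 44.0 bp over 8 pairs for 3A, and 171 and 94.5 bp over 6 pairs for 7A. None of these differences was tested.

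The summit of the first MYC peak was 247 bp downstream of the wild-type summit in 3A and 2 bp upstream of it in 7A. At the second MYC peak the 3A summit was 15 bp downstream of the wild-type summit and the 7A summit was at the same base. Over the 3 positions at MYC and PGK1 the median distance was 168 bp in 3A and 2.0 bp in 7A, beside the 5.0 and 6.0 bp of other pairs. The 7A and wild-type summits of MYC were therefore nearly coincident, and the 3A summit of the first peak was near the downstream edge, at 86.0% of the peak's width, against 54.8% in 7A and 53.4% in wild type.

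Peaks that lie mostly before a gene of known strand were rare in all lists. With gene strands taken from the RefSeq promoter table, peaks with at least 50% of their length in the 1 kb before a gene start on their own strand were 1.94% of the 3A list (2 of 103; exact 95% binomial interval 0.236 to 6.84%), 1.14% of the 7A list (1 of 88; 0.0288 to 6.17%) and 0.791% of the wild-type list (17 of 2149; 0.461 to 1.26%). These intervals cover counting error over peaks only. Strands were known for 27305 of 59792 placed genes, so peaks before the remaining genes were not counted. The PGK1 start peak was among the counted peaks in each list. Its place at the gene start was known when it was chosen, so nothing is read from this. In 7A the PGK1 start peak was the only one counted, and in 3A the other was at the histone gene H2BC21, with a fold enrichment of 2.21. The other 16 of wild type had a median fold enrichment of 5.74 and a median width of 193 bp, and the strongest of them, at LOC105369669, had 12.2. A stricter count took protein-coding genes only and dropped peaks with any base in another annotated gene on either strand. The PGK1 start peak was then the only one left in each of the 3 lists, of 103, 88 and 2149 peaks. The place of that peak was known when it was chosen, so nothing is read from this count either.

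The body of PGK1 gave a different picture from its start. No 3A or 7A peak lay there, and the wild-type list had a pair of narrow peaks. The first, chrX:78113808-78113936, was 129 bp wide and enriched 7.0-fold, with −log10 q at 18.2. The second, chrX:78124920-78125081, was 162 bp wide and enriched 6.88-fold, with −log10 q at 15.1. Both were under the wild-type median fold enrichment of 8.11 and ranked 1321 and 1343 of 2149. With the start peak they covered 1.77% of the annotated gene, against 0.531% in 3A and 0.451% in 7A. Over the whole wild-type list, 3.54% of peaks overlapped one of 3A and 1.40% one of 7A, so most wild-type peaks had no mutant counterpart.

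Some other enzymes of glycolysis had peaks in the gene, and none of these peaks reached upstream. Of 16 such genes, 4 had a 3A peak, 1 a 7A peak and 9 a wild-type peak, against 0.335%, 0.259% and 6.78% of 15843 protein-coding genes with a known strand. They held 10 peaks in 3A, 1 in 7A and 46 in wild type, and no base of these lay in the 1 kb upstream of the gene. The strongest wild-type ones by fold enrichment were at LDHB, a lactate dehydrogenase subunit (40.8), at the enolase gene ENO1 (26.8) and at TPI1, the triosephosphate isomerase gene (16.6). In 3A the enzymes with peaks were LDHB (14.7), ENO1 (12.6), the pyruvate kinase gene PKM (4.88) and GAPDH (3.05), and in 7A PKM (3.93). Expression of these genes was not measured here.

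Other genes whose promoters are likewise used in expression vectors were looked up in the same lists. In wild type no peak outside MYC and PGK1 had a fold enrichment above 44.8. None of these other genes could therefore come near the PGK1 start peak at 331, and nothing is read from that. EEF1A1, RPPH1, RN7SK and RNU6-1 had no 3A or 7A peak. Of protein-coding genes with a known strand, 0.335% had a 3A peak, 0.259% a 7A peak and 6.78% a wild-type peak. RPPH1, RN7SK and RNU6-1 are non-coding and were searched on both strands, so those shares are of an unlike set. Their strands were unknown, so 1 kb was added at the lower end only, and the promoter side may not have been searched. In wild type EEF1A1, an elongation factor gene, had a highest fold enrichment of 6.78 and no peak base upstream of its start. RPPH1 had a fold enrichment of 3.61 beside its −log10 q of 1189, and its strand is not in the promoter table, so its upstream share was not computed. RN7SK and RNU6-1, which encode small nuclear RNAs, had no peak in any list.

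The relatives and neighbours of both genes seldom had peaks, which was also so for protein-coding genes in general, of which 0.335% had a 3A peak, 0.259% a 7A peak and 6.78% a wild-type peak. Of 12 genes of the MYC, MAX and MLX network, including MYCN, MYCL and the MXD repressors, MAX alone had wild-type peaks, 2 with a highest fold enrichment of 4.29. None of the 12 had a 3A or 7A peak. Of 3 neighbours of MYC, the long non-coding RNA gene PVT1 had 2 wild-type peaks with a highest fold enrichment of 4.92, and CASC11 and POU5F1B had none in any list. PGK2, the testis form of the enzyme, the pseudogenes PGK1P1 and PGK1P2, and the PGK1 neighbours TAF9B, CYSLTR1 and ATP7A had no peak in any list. The MYC neighbours, PGK1P1 and PGK1P2 had no known strand and were searched on both strands. For them the shares of protein-coding genes are of an unlike set, and the PVT1 peaks may lie on either strand.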

How the data were processed

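Immunoprecipitated RNA of MYC-3A, MYC-7A and wild-type MYC cells with doxycycline was represented by 3 deposited narrowPeak lists, matched to groups by allele and treatment in their names. The tools named per the submitters' processing notes are BWA, cutadapt and MACS2, and the build is hg38. For their versions and roles, the control and any pooling of replicates, no source used here gives an account. The deposited fold enrichment is a ratio, the deposited significance is a −log10 q value, and the deposited score is 10 times that value, as checked on the files, and was not used otherwise.

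Positions were turned to 1-based. Genes and starts came from a RefSeq table of GRCh38.p14, strands and promoter sequence from the matching promoter table, which covers 27305 genes and not MYC. A gene of unknown strand was searched on both strands, with 1 kb added at its lower end. Overlap meant at least 1 bp on the same strand. The gene named for the strongest peak elsewhere, or for the peak of highest −log10 q, was found otherwise. It was the shortest gene that held the summit, on either strand. Scripts ran in Python 3.11.15 with Matplotlib 3.10.9, SciPy 1.17.1, NumPy 2.4.6 and pandas 2.3.3. The overlap functions were tested on simulated peaks. No hypothesis test was run.

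The genes and lists were chosen with earlier results of these data known. Genes named were MYC, PGK1, the 5 strongest peaks elsewhere in each list, of which only the first is given, and the listed relatives, neighbours, glycolysis enzymes and vector promoters. LOC105369669, H2BC21, MTRNR2L1 and the peak of highest −log10 q in each list were named after their values were seen. A single gene of the lists is not reported here.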

Additional observations from a re-analysis of the deposited data

How the results depend on the processing

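Of 52 alternative values of 24 results, 35 stayed within 1.5 times of the value reported and 17 did not. Dropping peaks whose fold enrichment was under the median of their list left 3 wild-type peaks at MYC and PGK1, without the pair in the body of PGK1. It left 2 in 7A, without the PGK1 start peak. Counting a peak as shared only with summits within 50 bp left 1 of the 3A peaks and 2 of the 7A peaks, in both without the PGK1 start peak. Ranked by −log10 q, the first MYC, second MYC and PGK1 start peaks were 2, 5 and 3 in 3A and 3, 12 and 17 in 7A. By fold enrichment times width, the PGK1 start peak was 5 in 3A, and in 7A the same peaks were 6, 11 and 28. By the side of the summit, the PGK1 start peak counts as 0% upstream in 3A and in 7A and as 100% in wild type. Peaks mostly upstream of a gene fell to 1 in 3A and 1 in wild type under a stricter rule. That rule took protein-coding genes only and dropped peaks with any base in another gene on either strand. With a tolerance of 10 bp at the edges, added after the data were seen, 73 of the 3A peaks and 24 of the 7A peaks lay inside a wild-type peak, in place of 60 and 23. No replicate could be left out. No paired analysis was possible because the lists are not split by replicate. Depth is unknown, which limits every comparison between lists.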
